A study of Homo sapiens with 6 samples.

Results

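The HOX genes described here are the 39 protein-coding genes of the 4 human HOX clusters, taken by symbol as HOXA, HOXB, HOXC or HOXD followed by a number. They are 39 of the 19951 protein-coding genes and 39 of the 58735 rows of the table. There were 11 in HOXA, 10 in HOXB, 9 in HOXC and 9 in HOXD. RNA sequencing was performed on MDA-MB-231, a human breast adenocarcinoma cell line of basal-like, triple-negative type. The labels give the genotype of all 6 libraries as WT and name them SCR_CTL and SCR_IR, and SCR stands for the shSCR cells, which carry a non-targeting short hairpin RNA in both groups. The 3 control libraries came from cells that received 0 Gy and the other 3 from cells that received 10 Gy from a 137Cs source at 1.7 Gy/min, with RNA taken 24 h later. The labels do not state whether the 3 libraries of a group were separate cultures, so the p-values below measure the spread between these libraries, which may be technical. All libraries came from 1 cell line, and in such bulk samples fewer cells of a kind and less RNA per cell cannot be told apart.

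HOX genes encode transcription factors with a homeodomain that assign position along the head-to-tail axis of the embryo. In each cluster the genes lie in the order of the body regions in which they act, from paralog group 1 at the anterior end to paralog group 13 at the posterior end, and genes of the same number in different clusters are paralogs. HOX proteins bind DNA together with PBX and MEIS proteins of the TALE class of homeodomain factors. In adult cells the clusters are kept open by trithorax-type H3K4 methyltransferases and closed by Polycomb complexes, so that a cell type is known for its own pattern of silent and transcribed HOX genes.

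The libraries held between 15643641 and 28861781 reads assigned to genes, recovered from the FPKM table (FPKM is fragments per kilobase of gene length, scaled to library depth). Vimentin (VIM, a mesenchymal filament) was read at 300.9 FPKM ± 9.54 (SD, n = 3) at 0 Gy, CD44 at 78.6 and the keratin KRT18 at 109.3 FPKM. Of the receptor genes, ESR1 and PGR stood at 0.0087 and 0 FPKM at 0 Gy, whereas ERBB2 was read at 7.08 FPKM ± 0.390. Of 7 markers of leukocytes, endothelium and stroma, 5 were under 1 FPKM, CD3E was at 0, and their summed level was 2.64 to 3.12 FPKM at 0 Gy and 3.59 to 3.90 at 10 Gy. Among them PECAM1 rose by 0.40 ± 0.057 (log2, SE; limma adjusted p of 0.0027), and its part in the HOX values was not tested. The irradiated libraries listed 24876 to 26496 genes above 0 and the unirradiated ones 22169 to 23975, and the part of this difference in the HOX values was not tested.

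In unirradiated cells the HOX genes were low or unread, with HOXB9 as the exception. No read was assigned in any of the 6 libraries to 17 of the 39 genes (43.6%), against 17.2% of all protein-coding genes. Over the 6 libraries together, 3 reads would correspond to between 0.00544 and 0.0182 FPKM for these 17 genes, depending on their length, and this floor covers counting error only. A further 4 genes (HOXC10, HOXC12, HOXC13 and HOXD13) had 1 read each, and the other 18 had more than 3. A mean of at least 0.1 FPKM over all libraries was reached by 14 genes, and of at least 1 FPKM by HOXB9 alone. In the order of levels at 0 Gy, HOXB9 was followed by HOXD4 (1.04 FPKM), HOXD1 (0.802), HOXC6 (0.674), HOXB3 (0.615) and HOXC8 (0.613). From HOXD4 down to HOXB8 at 0.180 FPKM, the 13th in that order, the libraries of each gene overlapped those of the next, so that neighbours were not separated beyond their spread. None of 77 ribosomal protein genes was at 0 in any library.

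**Figure D1:**
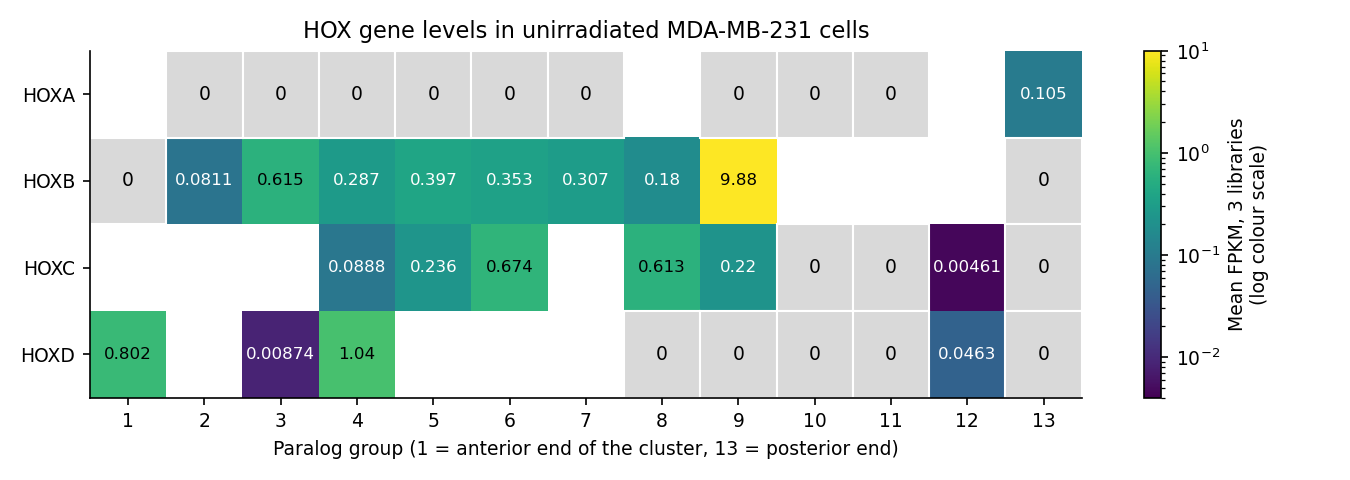
Mean FPKM over the 3 libraries at 0 Gy, with clusters as rows and paralog groups as columns. Grey cells marked 0 had no read at 0 Gy, white positions have no value shown, and the colour scale is logarithmic; HOXB9 at 9.88 FPKM stands above every other cell.

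The clusters differed in how much of them was read. HOXA, on chromosome 7, was read at its posterior end, and HOXA2 to HOXA11 had no read. HOXA13, which patterns the distal limb and the genital tract, had 54 reads over 6 libraries, at 0.111, 0.141 and 0.0635 FPKM at 0 Gy. HOXB, on chromosome 17 from 48528526 to 48729178 (GRCh38), was read from HOXB2 to HOXB9 without a gap, and HOXB1 and HOXB13 at its ends had no read. HOXC, on chromosome 12 from 53938765 to 54056030, was read from HOXC4 to HOXC9, while HOXC10 to HOXC13 had 0 or 1 read each. HOXD, on chromosome 2 from 176092891 to 176190907, was read at HOXD1 and HOXD4 near its anterior end. HOXD3 between them had 5 reads, HOXD8 to HOXD11 had none, and HOXD12 had 9. Of the exon bases of HOXD3, 62.2% lie in AC009336.2 on the same strand and 25.9% in no other annotated gene. How shared bases were counted is not given, and their effect on the low count of HOXD3 was not tested. The summed level at 0 Gy was 12.1 FPKM ± 0.392 for HOXB, 1.84 ± 0.132 for HOXC, 1.90 ± 0.360 for HOXD and 0.105 ± 0.0389 for HOXA (SD, n = 3). HOXC and HOXD thus had sums within their spread of each other, and HOXB held 75.9% of the HOX total.

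By position, the posterior genes (paralog groups 9 to 13) held 64.4% of the summed HOX FPKM at 0 Gy, the central genes (groups 4 to 8) 26.2% and the anterior genes (groups 1 to 3) 9.45%. The posterior share was nearly all HOXB9. Paralog group 9 was summed at 10.1 FPKM ± 0.508, of which HOXC9 gave 0.220 and HOXA9 and HOXD9 none. Group 10 had 1 read and group 11 none, in all clusters and libraries. Group 12 had 10 reads and group 13 had 56, of which 54 were those of HOXA13. Outside group 9 the level was spread over neighbouring genes: groups 3 to 8 each summed to between 0.307 and 1.42 FPKM at 0 Gy.

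To show the sequence in front of silent and read genes, the bases before the RefSeq start were taken from the RefSeq promoters of GRCh38.p14, up to the first base that any annotated exon covers. Of the 39 genes, 20 had an entry, and the genes from HOXB2 to HOXB9 and from HOXC6 to HOXC13 had none. Shown are HOXA13, which was read, with HOXA9 and HOXD8, which had no read. CG dinucleotides, the sites of DNA methylation, are in capitals. The stretches lie at chr7:27200107-27200341 (minus strand), chr7:27165538-27165787 (minus strand) and chr2:176129455-176129693 (plus strand).
HOXA13: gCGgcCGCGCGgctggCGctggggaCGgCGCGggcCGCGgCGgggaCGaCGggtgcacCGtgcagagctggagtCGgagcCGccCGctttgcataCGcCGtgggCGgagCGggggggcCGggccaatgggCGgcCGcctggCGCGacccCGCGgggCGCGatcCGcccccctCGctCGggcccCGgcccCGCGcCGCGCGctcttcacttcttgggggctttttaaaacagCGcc
HOXA9: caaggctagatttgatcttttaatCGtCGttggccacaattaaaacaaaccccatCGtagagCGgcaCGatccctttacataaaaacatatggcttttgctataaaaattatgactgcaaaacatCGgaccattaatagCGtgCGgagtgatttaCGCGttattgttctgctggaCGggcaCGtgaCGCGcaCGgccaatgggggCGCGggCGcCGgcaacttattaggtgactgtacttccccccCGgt
HOXD8: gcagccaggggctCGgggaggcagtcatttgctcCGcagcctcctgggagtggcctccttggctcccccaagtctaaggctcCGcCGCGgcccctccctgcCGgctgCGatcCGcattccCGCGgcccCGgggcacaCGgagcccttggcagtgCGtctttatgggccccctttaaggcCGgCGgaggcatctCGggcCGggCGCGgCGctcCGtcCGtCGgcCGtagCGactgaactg

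These stretches hold 40, 20 and 25 CG dinucleotides in 235, 250 and 239 bases. Over the full windows of 250 bases before the start, HOX genes with more than 3 reads had a median of 16 CG dinucleotides (range 4 to 40, 7 windows). These windows were those of HOXA13, HOXC4, HOXC5, HOXD1, HOXD3, HOXD4 and HOXD12. Unlike the stretches above, the full windows were not cut at exons. Annotated exons covered 249 or 250 bases of the windows of HOXC4, HOXC5, HOXD1 and HOXD4. Among unread genes they covered all 250 bases of some windows of HOXA3, HOXA10 and HOXA11. HOXB9 and most of the HOX genes with the most reads had no window. HOX genes with no read had a median of 19 (range 0 to 28, 19 windows of 12 genes), and all 35116 windows of the table had a median of 11. The CG-rich windows of HOXA13 and HOXD8 thus stood before a read and an unread gene. A TATA box (TATAAA, either strand) was found in 4 windows of unread genes, in none of those of genes with more than 3 reads, and in 10.7% of all windows. The 4 windows were those of HOXA9, of 1 start of HOXA3 and of both starts of HOXA10. A CCAAT box (CCAAT, either strand) was found in 10 of 19 and in 7 of 7 windows, against 32.0% of all windows. The HOX and PBX site TGATNNAT (either strand) was found in 3 windows of unread genes, in none of the 7 and in 6.47% of all. The window of HOXD13, with 1 read in all, stood in neither group. It held a TATA box and a CCAAT box and no HOX and PBX site. The windows were not independent. Many of those of unread genes were alternative starts of HOXA3, most of them without a CCAAT box. HOXC4 and HOXC5 share 1 window, and all these motif matches are letters only.

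HOXB9, a posterior-type factor with roles in the thoracic skeleton and the mammary gland, was the most abundant HOX transcript. At 0 Gy it was read at 10.4, 9.76 and 9.50 FPKM, with 572, 387 and 531 reads, and at 10 Gy at 7.49, 8.66 and 9.22 FPKM, with 578, 408 and 515 reads. The 3 irradiated libraries all lay below the 3 unirradiated ones, by a narrow margin between the nearest pair. At 0 Gy its mean of 9.88 FPKM ± 0.460 was 62.0% of all HOX FPKM and 9.50 times that of HOXD4, the next gene. Of the exon bases of HOXD4, 80.5% lie in AC009336.2 on the same strand, and their effect on this ratio was not tested. HOXB9 ranked 4677 among protein-coding genes, above 76.6% of them. In a limma fit on log2(FPKM + 1) over 12128 genes averaging 1 FPKM or more, HOXB9 changed by -0.21 ± 0.071 (log2, SE) with an adjusted p of 0.058, so that it was not called. Its log2 change was -0.10 after scaling to TPM (adjusted p of 0.30), and it was called among protein-coding genes alone (0.025) and without the third library at 10 Gy (0.036). Of all genes in that fit, 11.9% were called higher and 23.7% lower (1443 and 2874). After scaling to TPM, which sets each library to the same total, these became 3113 and 1066 (25.7% and 8.79%), with the median log2 change of all genes 0.12 higher, and 74.5% of the calls, against 33.4%, then pointed up. HOXB9 was called lower in the fit of reads described next, at -0.25 ± 0.080 with an adjusted p of 0.022, and this call was lost without the first library of either group (adjusted p of 0.059 and 0.20) and with library totals as depth (0.098). No exon base of HOXB9 is shared with another annotated gene.

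The other HOX genes were too low for that fit, so they were compared on the recovered reads with limma voom, over 15389 genes averaging 10 reads or more per library. The minimum was passed by 10 HOX genes: HOXB3, HOXB4, HOXB5, HOXB6, HOXB7, HOXB9, HOXC6, HOXC8, HOXD1 and HOXD4. HOXB3 and HOXB4 were called higher at 10 Gy and HOXB9 lower, against 15.1% of all genes called higher and 21.6% lower. Their median log2 change was 0.41, with 7 above 0 and 3 below, and the median of all genes was -0.01. Low genes as a whole lay higher at 10 Gy in this fit. Of the 2210 protein-coding genes under 1 FPKM, 70.7% had a change above 0, with a median of 0.22, and 17.2% were called higher and 2.08% lower. Among the 9 HOX genes under 1 FPKM, 7 had a change above 0 (77.8%) and 2 were called higher, so that the share that pointed up was near this background.

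**Figure D2:**
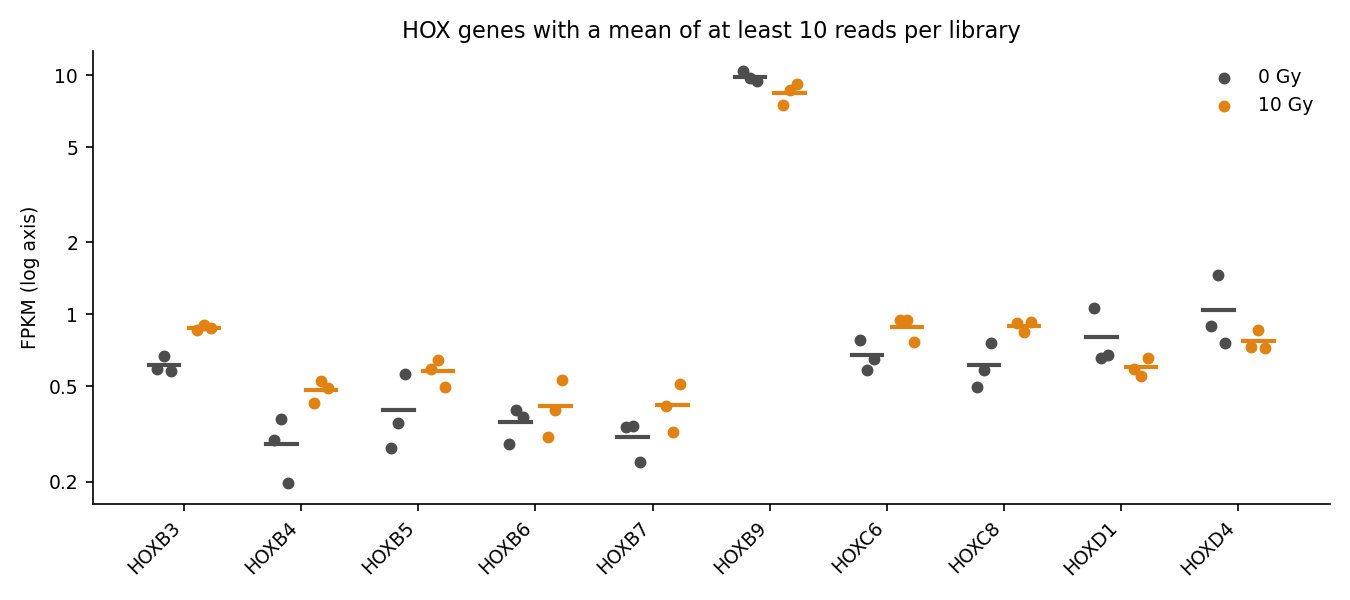
FPKM on a log axis for the 10 HOX genes with a mean of at least 10 reads per library, with 1 point per library, grey for 0 Gy and orange for 10 Gy, and a bar at each mean. HOXB3, HOXB4 and HOXC8 lie higher in all 3 irradiated libraries than in any unirradiated one, and HOXB9 and HOXD1 lie lower.

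HOXB3 and HOXB4, factors of the hindbrain and of blood stem cells, were the HOX genes called higher. HOXB3 was read at 0.591, 0.672 and 0.582 FPKM at 0 Gy and at 0.861, 0.904 and 0.880 at 10 Gy. The groups were well apart, with 94, 77 and 94 reads against 192, 123 and 142. The fit gave 0.53 ± 0.13 (log2, SE), a 1.44-fold change with a 95% interval of 1.20 to 1.73, with an adjusted p of 0.0036, and it stayed called in the read fit without any 1 library and with library totals as depth. On log2(FPKM + 1) it was called with a filter at 0.1 FPKM (adjusted p of 0.048) and not without a filter (0.13). HOXB4 was read at 0.300, 0.364 and 0.197 FPKM and then at 0.427, 0.525 and 0.492, again without overlap, from 61 reads in all at 0 Gy and 124 at 10 Gy. It changed 1.72-fold (1.17 to 2.53; adjusted p of 0.029), and its call was lost without the third library at 0 Gy (0.17), the second at 10 Gy (0.077) or the third at 10 Gy (0.062). Of the exon bases of HOXB3, 7.94% lie also in HOXB4 or HOXB6 on the same strand and 5.27% in HOXB-AS1 or HOXB-AS3 on the other, and 17.1% of those of HOXB4 are shared on the same strand with HOXB3, MIR10A and AC103702.1. How strand and shared bases were counted is not given in the sources used here, so reads of these genes cannot be told apart from those of their overlap partners there.

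The other HOXB genes with enough reads pointed the same way with wider intervals. HOXB5 was read at 0.276, 0.351 and 0.566 FPKM at 0 Gy and at 0.590, 0.644 and 0.498 at 10 Gy, with a fold of 1.47 (0.94 to 2.31; adjusted p of 0.17). HOXB6 had a fold of 1.13 (0.73 to 1.75; 0.69), and HOXB7, linked to growth of breast tumor cells, a fold of 1.35 (0.81 to 2.27; 0.36). None of these 3 was called, and their groups overlapped. HOXB8 and HOXB2, under the minimum, had 21 and 11 reads at 0 Gy and 23 and 13 at 10 Gy. The sum of HOXB without HOXB9 was 2.05, 2.43 and 2.18 FPKM at 0 Gy and 2.93, 3.05 and 3.02 at 10 Gy. With HOXB9 included, the sum of the cluster was 12.1 ± 0.392 and 11.5 ± 0.933 FPKM, with overlapping libraries.

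In HOXC, HOXC6 and HOXC8 carried most reads. HOXC8, a factor of the thoracic region, was read at 0.496, 0.585 and 0.758 FPKM at 0 Gy and at 0.921, 0.841 and 0.929 at 10 Gy. Its groups did not overlap, yet its fold of 1.47 (1.03 to 2.11) was not called (adjusted p of 0.087). HOXC6, which also acts in mammary gland development, was read at 0.782, 0.588 and 0.652 FPKM and then at 0.945, 0.944 and 0.770, with a fold of 1.303 (0.99 to 1.71; adjusted p of 0.12) and overlapping groups. The sum of the cluster was 1.69, 1.86 and 1.95 FPKM at 0 Gy and 2.31, 2.36 and 2.34 at 10 Gy. HOXC4, HOXC5 and HOXC9 were under the minimum with 14, 24 and 21 reads at 0 Gy and 32, 17 and 26 at 10 Gy. Of the exon bases of HOXC5, 59.9% are shared on the same strand with AC012531.2 and with a noncoding gene of the same symbol, whereas HOXC8 shares none.

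HOXD pointed down, without a call. HOXD1, an anterior factor, was read at 1.07, 0.659 and 0.678 FPKM at 0 Gy and at 0.593, 0.555 and 0.655 at 10 Gy. The irradiated libraries lay just under the unirradiated ones, and 1 unirradiated library was well above the rest. Its fold was 0.76 (0.52 to 1.11; adjusted p of 0.25). HOXD4 was read at 0.897, 1.47 and 0.757 FPKM and then at 0.731, 0.861 and 0.726, again with 1 high library at 0 Gy and with overlapping groups, and its fold was 0.79 (0.53 to 1.18; 0.36). The 2 genes had 179 reads together at 0 Gy and 161 at 10 Gy, so that folds down to 0.52 and up to 1.18 lie inside their intervals. Over the 10 genes, groups did not overlap for 3 that were higher (HOXB3, HOXB4 and HOXC8) and 2 that were lower (HOXB9 and HOXD1), where 20.9% and 27.0% of all genes in this fit did the same.

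**Figure D3:**
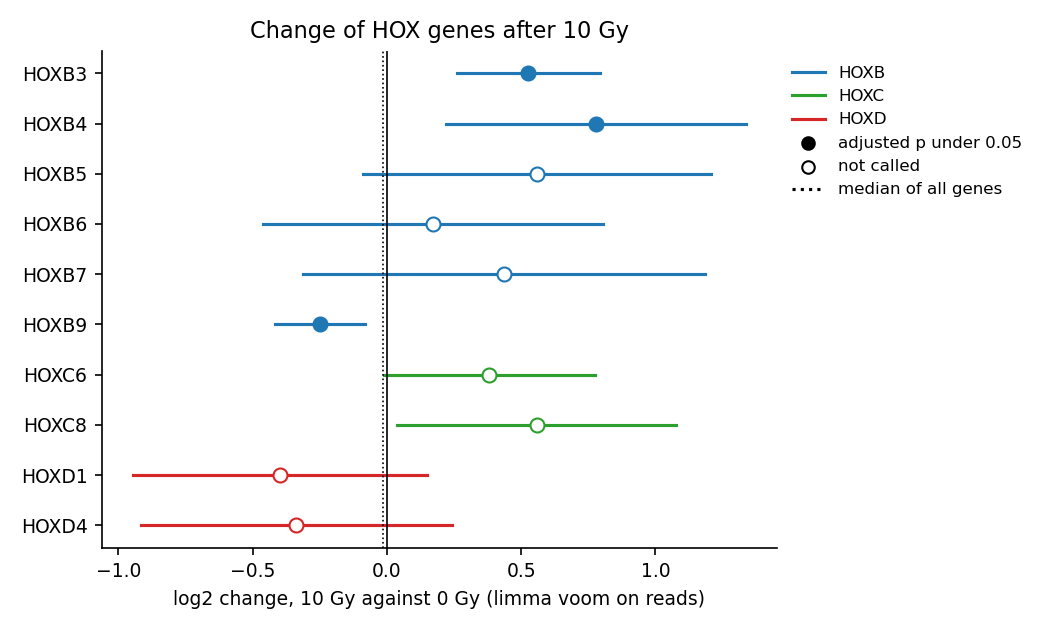
The log2 change at 10 Gy against 0 Gy from limma voom on the recovered reads for the 10 HOX genes with enough reads, with 95% intervals, coloured by cluster. Filled points have an adjusted p under 0.05 (HOXB3, HOXB4 and HOXB9), open points do not, and the dotted line at -0.01 is the median of all genes.

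No HOX gene that was unread at 0 Gy rose above the floor of 3 reads at 10 Gy. HOXC10, HOXC13 and HOXD13, unread at 0 Gy, had 1 read each at 10 Gy, and HOXC12 had 1 read at 0 Gy and none at 10 Gy. HOXA13 had 30 reads at 0 Gy and 24 at 10 Gy, and HOXD12 had 4 and 5. The 17 genes counted above as unread were those with no read in any library, so their 0 at 10 Gy follows from that definition.

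Noncoding genes fill the spaces between the HOX genes. Of 57 within the 4 spans, 41 had no read in any library, and 3031 of their 3298 reads lay in HOXD. HAGLR, an RNA antisense to HOXD1 and HOXD3, gave 2999 of these. It was read at 4.51, 4.58 and 4.84 FPKM at 0 Gy and at 4.30, 4.57 and 4.77 at 10 Gy, with overlapping groups and a change of -0.026 ± 0.050 (log2, adjusted p of 0.71). Its level was above that of every HOX coding gene except HOXB9. Of the exon bases of HOXD1, 58.1% lie opposite HAGLR or AC009336.3, and 80.5% of those of HOXD4 lie in AC009336.2 on the same strand, and how many of the reads of HOXD1 and HOXD4 came from shared bases was not tested. HOXB-AS3, opposite HOXB3, HOXB5 and HOXB6, had 32 reads at 0 Gy and 61 at 10 Gy (log2 change of 0.66 ± 0.32, adjusted p of 0.11). HOTTIP, at the HOXA13 end of HOXA, had 0 and 2 reads. The 8 miRNA genes in the spans had 1 read in all, from polyA libraries that do not capture mature miRNAs. Outside the clusters, the nearest protein-coding genes of at least 1 FPKM on each side, 65.2 to 405.5 kb away, were read at 3.04 to 23.7 FPKM at 0 Gy, and of these 8 genes 1 was called higher and 3 lower, against 11.9% and 23.7% of all genes.

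The TALE cofactors that pair with HOX proteins were present mainly as PBX genes. PBX2 was read at 13.6 FPKM ± 0.485 at 0 Gy, PBX3 at 5.78 ± 0.174, PKNOX1 at 3.00 ± 0.222 and PBX4 at 2.88 ± 0.238. MEIS2 stood at 0.991 FPKM and MEIS1 at 0.0406, both too low for the fit on log2(FPKM + 1). Of 9 genes listed, 4 were tested, 1 was called higher and 2 lower, against 11.9% and 23.7% of all genes. PBX2 rose by 0.12 ± 0.037 (log2; adjusted p of 0.035), PKNOX1 fell by 0.29 (0.017) and PBX3 fell by 0.23 (0.031), while PBX4 gave 0.029 (0.78). After scaling to TPM, PBX2 was the 1 call left and neither of the 2 lower calls held.

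The genes of trithorax type and of the Polycomb complexes were all above 1 FPKM on average. Of 16 trithorax and COMPASS genes, 7 rose and 3 fell, where 11.9% of all genes were called higher and 23.7% lower. The 7 that rose had lengths of 7258 to 31305 bases and the 3 that fell 3629 to 6768. DOT1L, at 11272 bases, was not called. The part of gene length in these calls was not tested. The H3K4 methyltransferases KMT2D and KMT2A rose from 9.15 FPKM ± 1.41 to 14.4 ± 1.20 (log2 change of 0.61, adjusted p of 0.0052) and from 3.78 ± 0.347 to 5.35 ± 0.190 (0.41; 0.0032). ASH1L, an H3K36 methyltransferase, and KDM6B, a demethylase that removes H3K27 methylation, rose by 0.36 and 0.34 (adjusted p of 0.017 and 0.0054), and WDR5, a shared scaffold subunit, fell from 44.1 to 35.3 FPKM (-0.31; 0.0014). Of 29 Polycomb genes, 2 rose and 13 fell, against the same shares of all genes. EZH2, the H3K27 methyltransferase, fell from 31.8 FPKM ± 0.618 to 26.2 ± 0.397 (-0.27; 0.0012), its partner EED by 0.27 (0.0053), and CBX2, PCGF1 and BMI1 of the PRC1 complexes by 0.34, 0.31 and 0.28 (adjusted p of 0.00081, 0.0068 and 0.0020). SUZ12, another partner of EZH2, was not called (-0.022; 0.66). The 2 genes that rose were JARID2 (0.24; 0.0024) and PCGF3 (0.18; 0.014). The median log2 change of the trithorax list was 0.050 and that of the Polycomb list -0.13, where the median of all genes was -0.039. After scaling to TPM they were 0.18 and -0.013, where the median of all genes was 0.077. On the TPM scale the counts were 8 higher and 1 lower for trithorax and 6 higher and 5 lower for Polycomb, where 25.7% of all genes were called higher and 8.79% lower. Polycomb genes thus had no majority of lower calls on that scale, and their median was under that of all genes on both.

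Regulators upstream of the clusters were partly absent. The caudal factors CDX1, CDX2 and CDX4 and the retinoic acid enzyme CYP26A1 had no read, and RARB, a retinoic acid receptor, was read at 0.0335 FPKM. Of 21 genes, 11 were tested, 1 rose and 5 fell, against 11.9% and 23.7% of all genes. CTCF, which insulates domains of the clusters, fell from 8.42 FPKM ± 0.0254 to 6.22 ± 0.135 (-0.38; adjusted p of 0.00070). GMNN (geminin, a replication inhibitor that also binds HOX proteins) fell by 0.29 (0.0041), the retinoid receptor RXRB by 0.26 (0.0037) and the orphan receptor NR2F2 by 0.23 (0.0096), while the receptor RARG rose by 0.19 (0.0078). After scaling to TPM, 2 were called higher and 3 lower, against 25.7% and 8.79% of all genes. The call of NR2F2 was lost with TPM (-0.11; 0.12) and with upper quartile scaling (-0.14; 0.062).

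**Figure D4:**
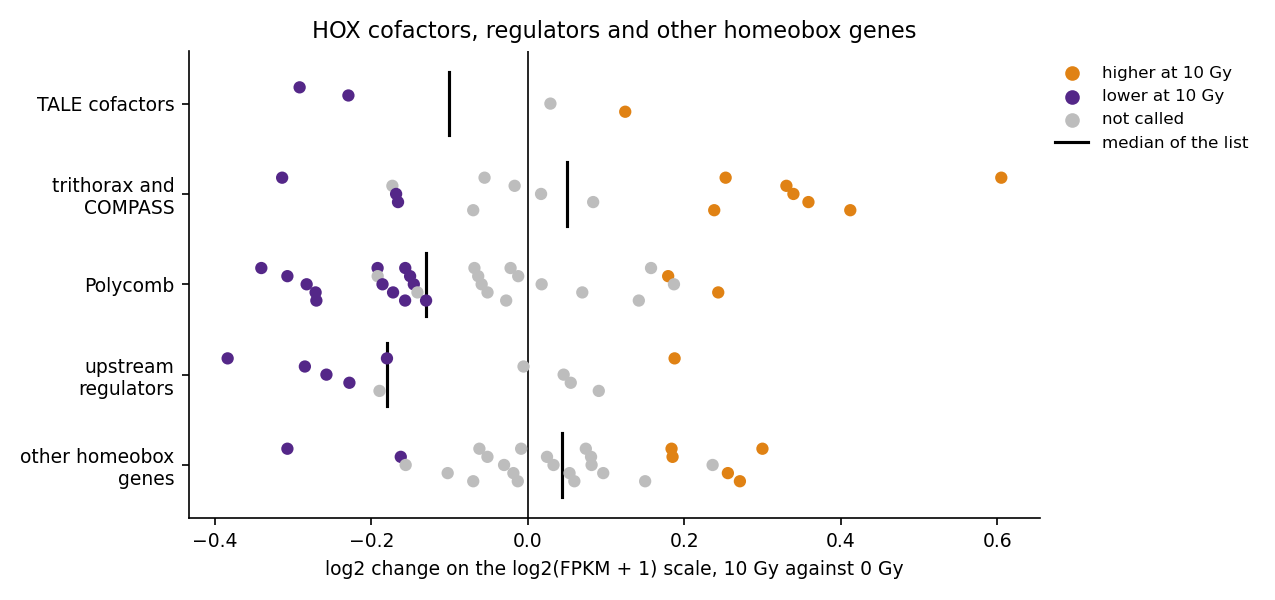
Each point is a gene of at least 1 FPKM, placed by its log2 change on the log2(FPKM + 1) scale at 10 Gy against 0 Gy, in rows for 5 gene lists, with the list median as a black bar. Orange marks genes called higher and purple genes called lower: 7 and 3 of 16 trithorax and COMPASS genes, and 2 and 13 of 29 Polycomb genes.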

How the data were processed

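The authors deposited FPKM values of 6 polyA libraries of MDA-MB-231 cells, prepared and sequenced by Novogene. The submitters' processing notes name HISAT2 and GRCh38, and the counting program, its strand setting and the handling of multiple matches are not given in the sources used here. The gene coordinates are those of GENCODE 29 for 99.8% of identifiers, and the deposited lengths equal the exon union for 39 of 39 HOX genes. Multiplying FPKM by length and by each library's implied depth gave whole reads for 100% of values (tolerance 0.1 reads), with implied depth 0.973 to 1.04 times the summed reads. The main comparison was a limma fit (version 3.58.1, R 4.3.3) of log2(FPKM + 1) values with an intensity trend, over genes averaging 1 FPKM or more. The fold change on this scale understates that of low genes. HOX genes below that level were compared with limma voom on recovered reads, at least 10 on average. A gene was called at a Benjamini-Hochberg adjusted p under 0.05, adjusted over all genes of the fit. Levels between genes are compared as FPKM, which is per length. Named were HOX genes by level and reads, and of each list at most 4 called and 4 high genes. SUZ12, JARID2 and PCGF3 of the Polycomb list were added after values were seen. Genes under 1 FPKM as a background and the nearest expressed neighbours were added after values were seen. Members and lists were chosen with earlier results of these data known. Both fits were tested on simulated data, with 100 genes changed 2-fold and 100 changed 1.3-fold. The fit on log2(FPKM + 1) called 92% and 44% of these, and voom 92% and 60%. Of all calls, 5.56% and 7.88% were genes left unchanged. The simulated spread between libraries was set alike for all genes, so these shares hold for that setting only. All value columns were used. Some genes of these lists are not reported here by name.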

Additional observations from a re-analysis of the deposited data

How the results depend on the processing

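HOX genes called in the fit on log2(FPKM + 1) numbered 0 (1 at an unadjusted p under 0.05, HOXB9), 1 with a filter at 0.1 FPKM (HOXB3), 1 among protein-coding genes alone (HOXB9), 3 with voom on recovered reads, and 0 to 1 when leaving out 1 library. On recovered reads 3 were called, against 1 with the filter at 0.1 FPKM, 1 with that filter and a pseudocount of 0.1 FPKM (added after seeing the data), 0 with no filter and 2 to 3 when leaving out 1 library. The lower values are on a log2(FPKM + 1) or log2(FPKM + 0.1) scale over more genes. All genes called numbered 4317 and fell to between 2660 and 3993 without 1 library. Of these, 700 changed by at least 1.3-fold, against 1059 with a pseudocount of 0.1 FPKM, 1221 as TPM and 1734 with voom. The share of higher calls was 33.4%, and 63.9% with upper quartile scaling, 74.5% as TPM, 41.2% with voom and 64.2% with voom on library totals. Small changes turned sign: when leaving out 1 library, HOXB6 ranged from -0.026 to 0.42, PBX4 from -0.018 to 0.077 and HAGLR from -0.056 to 0.0060, and HAGLR was at 0.049 and 0.091 with upper quartile scaling and TPM. Same-numbered libraries did not deviate together (correlations of -0.04, -0.03 and -0.10). With so few libraries this cannot show whether equal numbers mark a shared culture or batch, and the main fits left the libraries unpaired. With a replicate block 0 HOX genes were called on log2(FPKM + 1) (HOXB9 at an adjusted p of 0.10) and 3 on reads, and 3503 genes in all. Depth limits the low genes: at 61 reads in a group, as for HOXB4 at 0 Gy, the 95% interval of the fold spanned 1.17 to 2.53.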

Other observations

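Among a chosen list of homeobox genes outside the HOX clusters, a larger share reached 1 FPKM than among the HOX genes. Of 76 listed, 18 had no read in any library and 26 had a mean of at least 1 FPKM, against 1 of 39 HOX genes. PITX1, a factor of the hindlimb, led at 31.0 FPKM ± 2.11 at 0 Gy, followed by ADNP (15.2), POU2F2 (13.6) and TGIF2 (10.6). Of the 26, 5 rose and 2 fell at 10 Gy in the limma fit on log2(FPKM + 1), against 11.9% and 23.7% of all genes. POU2F2, which encodes an octamer-binding factor best known from B cells, fell from 13.6 FPKM ± 0.739 to 10.8 ± 0.311 (log2 change of -0.31, adjusted p of 0.0031). SIX3, an eye and forebrain factor, rose from 0.934 to 1.38 FPKM (0.30; 0.020), IRX5 from 3.89 to 4.88 (0.27; 0.021) and HMBOX1, a telomere-binding factor, from 0.908 to 1.28 (0.26; 0.047). After scaling to TPM, 9 were called higher and 1 lower, against 25.7% and 8.79% of all genes, and the list median stood 0.08 above that of all genes in FPKM and 0.09 above it in TPM.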
